A study of Mus musculus with 21 samples.

Results

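The vacuolar H+-ATPase (V-ATPase) and the lysosomal nutrient-sensing genes that control mTORC1 were examined here as 42 genes taken by a list of symbols. All 42 were listed in each of the 4 deposited tables, among 19399 genes common to them. They comprise the subunits of the proton pump, the Ragulator scaffold, the Rag GTPases, the folliculin complex, GATOR1, the arginine sensor Slc38a9, mTORC1 with Rheb, the TSC proteins, and the transcription factors Tfeb and Tfe3.

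The study sequenced the polyadenylated RNA of 21 primary cultures of mouse cortical neurons. Of these, 5 were hTau P301S transgenic (Tau) cultures with DMSO, 5 were Tau cultures with AdipoRon, 5 were wildtype (WT) cultures with DMSO, and 6 were WT cultures with AdipoRon. AdipoRon, a small-molecule agonist of the adiponectin receptors, was given for 24 h at 10 μM according to the sample tags and the study's methods, although the deposited protocol text says 10 mM. All cultures came from newborn pups and had received AraC against dividing glia. In the Tau line a prion promoter drives mutant human tau. The study's methods describe seeding with pre-formed tau fibrils for the Tau cultures, on day 7, followed by 18 more days. Its results text dates the RNA of both genotypes from seeding and does not say whether WT cultures were seeded. Transgene and seeding therefore cannot be told apart. The study's reporting summary says of its experiments in general that each animal contributed to both treatments. With 5 WT cultures with DMSO and 6 with AdipoRon, not every WT culture here can have a counterpart. The labels do not tie cultures to animals.

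Each table gives 1 mean level per gene over the cultures of its 2 groups, in log2 CPM (CPM being counts scaled to a common library total). The tables therefore hold the mean of all DMSO cultures, of all AdipoRon cultures, of all WT cultures and of all Tau cultures. Differences between these means are reported here. They average the AdipoRon response over both genotypes and the genotype difference over both treatments, and the response within 1 genotype cannot be told from them. No value per culture was used, so no difference below has a replicate error or a test, and the columns used give no depth per culture. A difference of more than 1.2-fold in either direction, 0.26 on the log2 scale, was set apart and is read only against how often all genes passed it. The tables were scaled separately. Their levels summed to between 1001300 and 1002100 CPM each, which follows from scaling to a common total. The sums therefore do not show that levels are comparable between tables.

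The V-ATPase pumps protons into lysosomes and synaptic vesicles. Its V1 sector hydrolyses ATP in the cytosol, and its V0 sector carries protons through the membrane. On the lysosome the pump also holds Ragulator, which anchors heterodimers of RagA or RagB with RagC or RagD, and these recruit mTORC1 when amino acids are plentiful. GATOR1 switches off RagA and RagB, the folliculin complex acts on RagC and RagD, and TSC switches off Rheb, the direct activator of mTORC1. Active mTORC1 phosphorylates Tfeb and Tfe3 and keeps them from the nucleus, where they switch on lysosomal genes. AMPK, a kinase downstream of the adiponectin receptors, restrains mTORC1 through Tsc2 and Rptor.

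With AdipoRon, the 24 nutrient-sensing genes and the 18 pump genes differed in how far their means moved. This split holds for the listed genes only, since Tcirg1 and Atp6v0d2, pump subunits outside the list, were more than 1.2-fold higher. Fnip2, Rragc, Rragd, Flcn, Fnip1, Mlst8, Depdc5 and Lamtor4 were more than 1.2-fold higher in AdipoRon than in DMSO cultures, all 8 of them nutrient-sensing genes. They make up 19% of the 42 genes, while 15% of all genes were that much higher with AdipoRon, and 10.9% of the 9424 genes above a log2 CPM of 4 in every table. None of the 42 was more than 1.2-fold lower, against 13.8% of all genes and 8.89% of those above the level of 4. Of the 42 genes, 35 had a higher mean with AdipoRon, which is 83.3% against 55.5% of all genes and 57.9% of those above the level of 4. The median log2 difference was 0.15 over the 42 genes and 0.03 over all genes. Centring the differences on the median of all genes took Lamtor4 below 1.2-fold and brought Rheb past it on the lower side, so the split became 7 higher and 1 lower. Markers of cell types also differed with AdipoRon. The summed level of 8 neuronal markers differed by -12.8%, 7 of the 8 having a lower mean. That of 6 astrocyte markers was 7.04% higher, with 3 of the 6 having a higher mean. Gfap, the astrocyte marker with the highest level, had 1661 CPM with DMSO and 2104 CPM with AdipoRon. Aldh1l1 and Gja1 were also higher, while Slc1a3, Aqp4 and Slc1a2 were lower, at -0.24, -0.23 and -0.11. The part of these markers in the AdipoRon differences was not tested. In bulk RNA, fewer cells of a type and less RNA per cell cannot be told apart.

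**Figure D1:**
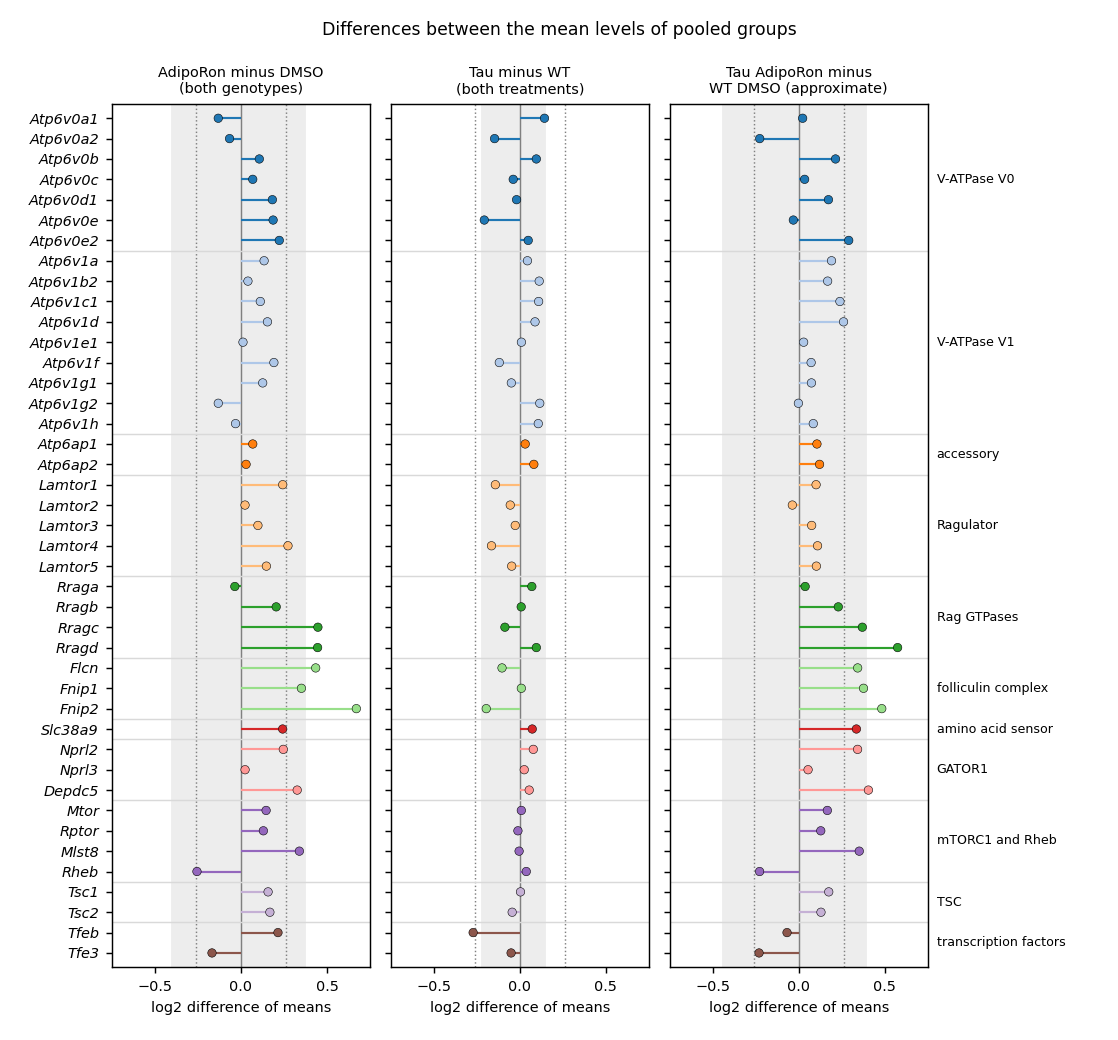
Log2 difference of mean levels for each of the 42 genes (rows, grouped by complex). The panels show AdipoRon minus DMSO over both genotypes, Tau minus WT over both treatments, and Tau with AdipoRon minus WT with DMSO. Dotted lines mark 1.2-fold, and the grey band spans the 5th to 95th percentile of genes above a log2 CPM of 4. The folliculin genes and Rragc and Rragd lie furthest to the right in the left panel, from 0.35 to 0.67, and most genes lie near 0 in the middle panel.

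The folliculin complex had the highest median difference with AdipoRon of the complexes, 0.43. Folliculin (Flcn) and its partners Fnip1 and Fnip2 together act on RagC and RagD, and the complex is needed for mTORC1 to phosphorylate Tfeb and Tfe3. Fnip2 had a mean of 32.4 CPM in DMSO cultures and 51.6 CPM in AdipoRon cultures, a log2 difference of 0.67 or 59.1%. It ranked 399 from the top of all 19399 genes and was the single member past 1.5-fold. Its mean was 45.1 CPM over WT and 39.4 CPM over Tau cultures. These pools each mix DMSO and AdipoRon cultures, so their means lie between the DMSO and AdipoRon means when the AdipoRon difference is the larger.

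Flcn had 63.0 CPM with DMSO and 85.1 CPM with AdipoRon, a log2 difference of 0.43. For Fnip1 the means were 64.8 and 82.6 CPM, a log2 difference of 0.35. The summed level of the 3 genes was 160.2 CPM with DMSO and 219.3 CPM with AdipoRon, 36.9% higher. No other complex with more than 1 gene had all of its members past 1.2-fold.

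Of the Rag GTPases, Rragc and Rragd were higher with AdipoRon, and Rraga was not. Rragc had a mean of 78.2 CPM in DMSO and 106.6 CPM in AdipoRon cultures, a log2 difference of 0.45. Rragd, its paralog, had 155.6 and 211.9 CPM, also 0.45. These are the 2 Rag genes whose proteins folliculin acts on. The WT and Tau means were 95.5 and 89.9 CPM for Rragc and 179.4 and 191.7 CPM for Rragd. They lay between the DMSO and AdipoRon means, as pools that mix both treatments do when the AdipoRon difference is the larger.

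Rraga and Rragb encode the partners that GATOR1 switches off. Rraga had 101.6 CPM with DMSO and 99.2 CPM with AdipoRon, a log2 difference of -0.04. Rragb had 54.2 and 62.4 CPM, a difference of 0.20 that is short of 1.2-fold. Rragd, Rragc and Flcn are known from other cells as targets of Tfeb and Tfe3.

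Tfeb and Tfe3 bind E-boxes, the letters CACGTG, most strongly when a T precedes them (TCACGTG). The promoter windows of RefSeq, which run from 250 bases before to 50 after each start in GRCm38.p6, were searched on both strands for CACGTG and for longer forms that contain it. Windows were listed for 36 of the 42 genes. CACGTG was found for 10 of the 36, or 27.8%, and for 8.09% of the 27025 genes with a window. In all 10 it was part of TCACGTG, which 4.29% of all genes held. These 10 were Atp6v0b, Atp6v0d1, Atp6v0e, Atp6v1a, Lamtor1, Lamtor4, Rragb, Rragc, Fnip1 and Rheb. The longer TCACGTGA was found for Atp6v0d1, Atp6v0e and Atp6v1a, 8.33% of the 36 against 1.12% of all genes. The full CLEAR element, which adds 1 base at each end of that form, was in none of the 36 and in 0.37% of all genes. All 36 had a level in these cultures, while the 27025 genes include many without one. Of the 14477 genes with a window and a level, 1532 held CACGTG, 876 TCACGTG and 253 TCACGTGA. These are larger shares than those of all genes with a window. No CACGTG was found in the windows of Flcn, Fnip2 or Rragd. A match is a description of the letters and not a measured binding site.

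The 30 bases around the match are shown for the 3 members past 1.2-fold that hold one (Rragc, Fnip1 and Lamtor4), for Lamtor1 from the same scaffold as Lamtor4, for Atp6v1a as a pump gene with the form of 8 bases, and for Rheb, whose AdipoRon difference was the most negative. All 6 lie upstream of the gene's start. They are written 5′ to 3′ along the gene's strand, with the matched letters in capitals.
Rragc, plus strand, chr4:123917310-123917339: gtgattccgggCACGTGAtagtaccactta
Fnip1, plus strand, chr11:54438093-54438122: cagtttgctgcCACGTGAtacggctcgtcg
Lamtor4, plus strand, chr5:138255366-138255395: tgaacagctttTCACGTGtaaaccaaacca
Lamtor1, plus strand, chr7:101905757-101905786: ctgccttcctaTCACGTGccgcgggtccgc
Atp6v1a, minus strand, chr16:44139373-44139402: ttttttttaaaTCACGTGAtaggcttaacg
Rheb, minus strand, chr5:24842440-24842469: gccgcgcgcggTCACGTGggtgtgttgttg
Rragc and Fnip1 hold the letters as CACGTGA, which is TCACGTG read on the other strand, and Atp6v1a holds the symmetric form of 8 bases. The match begins 112 bases before the start of Rragc and 75 bases before that of Fnip1. Rheb, which had the most negative AdipoRon difference of the 42 genes, carries a match 97 bases before its start.

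The 5 Ragulator genes all had higher means with AdipoRon, by 0.02 to 0.27. Lamtor1, which tethers the scaffold to the lysosomal membrane, had 69.3 CPM with DMSO and 82.0 CPM with AdipoRon, a log2 difference of 0.24. Lamtor4 had 34.0 and 41.1 CPM, a difference of 0.27 that lies just past 1.2-fold. Lamtor5 had 22.7 and 25.2 CPM, a difference of 0.15. Lamtor3 had 29.1 and 31.1 CPM, a difference of 0.10, and Lamtor2 had 51.5 and 52.4 CPM, a difference of 0.02. The summed level was 206.7 CPM with DMSO and 231.8 CPM with AdipoRon, 12.2% higher.

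The 3 GATOR1 genes and the arginine sensor had higher means with AdipoRon, Nprl3 by little. Depdc5, the subunit of GATOR1 that holds the Rag dimer, had 54.1 CPM with DMSO and 67.9 CPM with AdipoRon, a log2 difference of 0.33. For Nprl2, which carries its GTPase-activating residue, the means were 20.5 and 24.3 CPM, a difference of 0.25. Nprl3 had 26.9 and 27.3 CPM, a difference of 0.02. Slc38a9, which reports lysosomal arginine to the Rag GTPases, had 32.2 and 38.1 CPM, a difference of 0.24.

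Within mTORC1, the kinase gene Mtor had 141.0 CPM with DMSO and 156.0 CPM with AdipoRon, a log2 difference of 0.15. Rptor, the subunit that binds substrates and the Rag GTPases, had 95.8 and 104.9 CPM, a difference of 0.13. Mlst8, a small subunit that mTORC1 shares with mTORC2, had 19.7 and 24.98 CPM, a difference of 0.34. Rheb had 106.8 CPM with DMSO and 89.5 CPM with AdipoRon, a difference of -0.26 that lies just inside 1.2-fold and ranked 16617 from the top of all genes. Of the 7 members with a lower mean under AdipoRon, Rheb had the largest difference. Tsc1 and Tsc2, which act on Rheb, were at 71.1 and 112.8 CPM with DMSO and at 79.3 and 126.7 CPM with AdipoRon, differences of 0.16 and 0.17.

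Tfe3 and Tfeb went in opposite directions. Tfe3 had 67.3 CPM with DMSO and 59.9 CPM with AdipoRon, a log2 difference of -0.17. Tfeb had 15.2 and 17.7 CPM, a difference of 0.22, and was the 1 member at a log2 CPM of 4 or below in any table. Neither passed 1.2-fold.

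None of the 18 pump genes passed 1.2-fold with AdipoRon in either direction, against 15% of all genes higher and 13.8% lower. Of the 3 pump subunits outside the 18 that had a level in all 4 pools, 2 were more than 1.2-fold higher. These were Tcirg1 at 0.36 and Atp6v0d2 at 0.59, from 62.8 and 9.97 CPM with DMSO. Among genes above a log2 CPM of 4 in every table, as all 18 are, 10.9% were higher and 8.89% lower. A higher mean was found for 14 of the 18, or 77.8%, against 55.5% of all genes and 57.9% of those above the level of 4. The summed level of the V-ATPase genes was 4071 CPM with DMSO and 4235 CPM with AdipoRon, 4.02% higher, while that of the 24 nutrient-sensing genes was 1520 and 1748 CPM, 15.0% higher. In the V0 sector the largest difference was that of Atp6v0e2, with 233.4 CPM under DMSO and 272.4 CPM under AdipoRon, 0.22 on the log2 scale. Its paralog Atp6v0e had 45.8 and 52.1 CPM, a difference of 0.19. Atp6v0d1, which couples the ring to the central stalk, had 168.4 and 191.1 CPM, a difference of 0.18. Of the genes of the proton-carrying ring, Atp6v0b had 172.2 and 185.4 CPM and Atp6v0c had 277.0 and 290.5 CPM, differences of 0.11 and 0.07. The a subunits steer the pump to its membrane. Those among the 18 genes had lower means with AdipoRon, while Tcirg1, the a3 subunit outside the 18, was at 0.36. Atp6v0a1, the form most used by neurons, had 484.0 and 441.8 CPM, a difference of -0.13, and Atp6v0a2 had 136.05 and 129.96 CPM, a difference of -0.07.

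In the V1 sector the catalytic subunit Atp6v1a had 508.4 CPM with DMSO and 558.1 CPM with AdipoRon, a log2 difference of 0.13. Its partner Atp6v1b2 had 463.4 and 476.7 CPM, a difference of 0.04. Of the central stalk, Atp6v1f had 84.6 and 96.6 CPM, the largest difference of the sector at 0.19, and Atp6v1d had 161.4 and 179.5 CPM, a difference of 0.15. Of the outer stalks, Atp6v1g2, the form found mainly in brain, had 181.5 and 165.7 CPM, the lowest difference at -0.13. Atp6v1g1 had 121.5 and 132.65 CPM and Atp6v1e1 had 260.3 and 262.5 CPM, differences of 0.13 and 0.01. Atp6v1c1 and Atp6v1h take part in joining V1 to V0. The former had 152.4 and 164.75 CPM, a difference of 0.11, and the latter 153.9 and 150.6 CPM, a difference of -0.03. The accessory subunits, which help assemble the pump, differed as little, with 287.2 and 301.2 CPM for Atp6ap1 and 179.7 and 183.4 CPM for Atp6ap2, differences of 0.07 and 0.03.

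**Figure D2:**
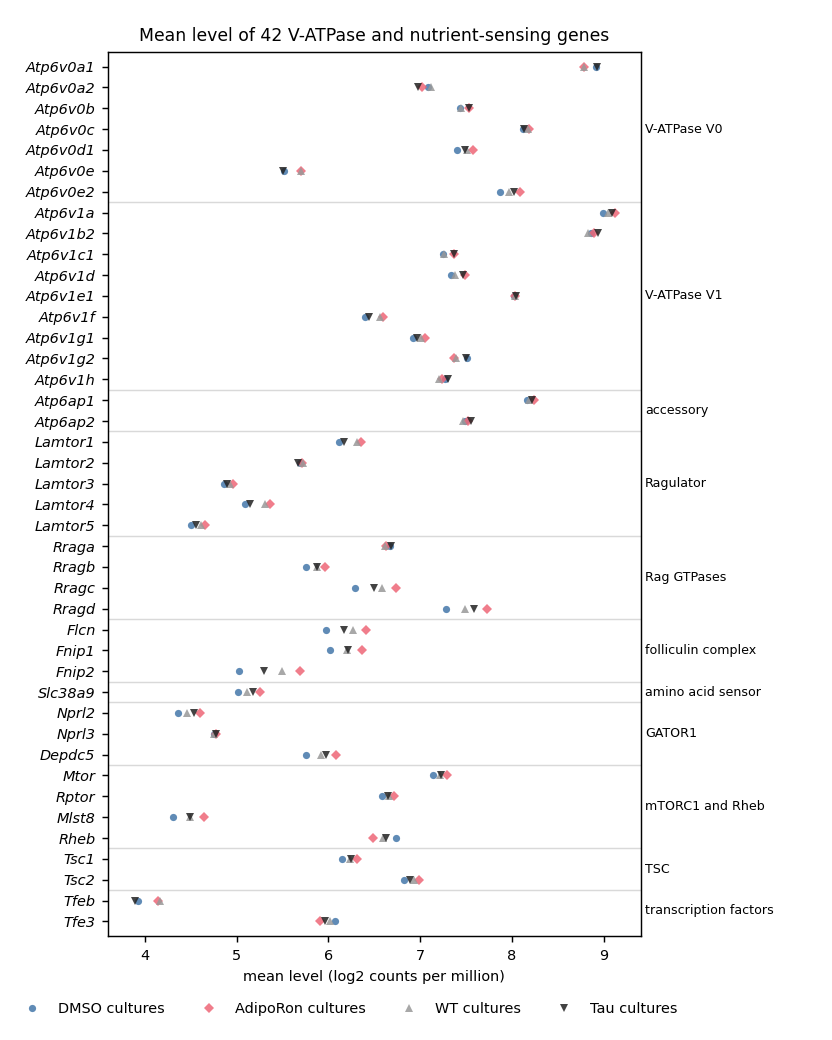
Mean level (log2 CPM) of the 42 genes in each of the 4 pools of cultures, grouped by complex. Circles are DMSO, diamonds AdipoRon, upward triangles WT and downward triangles Tau cultures. The pump genes spread from 45.2 CPM (Atp6v0e, Tau) to 558.1 CPM (Atp6v1a, AdipoRon) with their 4 symbols close together, while the DMSO and AdipoRon symbols of Fnip2 (32.4 and 51.6 CPM) stand apart.

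Levels between genes were compared per length of the canonical transcript. In DMSO cultures the genes of the pump ranged from 23.7 CPM per kb for Atp6v1c1 to 212.3 CPM per kb for Atp6v1e1. Atp6v1a was at 110.8 and Atp6v1b2 at 164.0 CPM per kb, although their proteins enter the pump in equal number. The nutrient-sensing genes ranged from 3.61 CPM per kb for Slc38a9 to 77.1 CPM per kb for Lamtor2. These values take 1 transcript per gene, and the use of other isoforms was not tested.

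Several subunits have 2 paralogs among the members, and their shares per length were compared. Atp6v0a1 made up 82.2% of the a1 and a2 pair with DMSO and 81.5% with AdipoRon. Rragd made up 50.6% of the RagC and RagD pair in DMSO and 50.6% in AdipoRon cultures, so the balance of the pair was alike in both. The share of Fnip2 in the Fnip pair was 30.4% with DMSO and 35.3% with AdipoRon. Tfeb made up 24.8% of the Tfeb and Tfe3 pair with DMSO and 30.04% with AdipoRon. Atp6v1g2 went from 52.2% of its pair with DMSO to 47.8% with AdipoRon, and Rragb from 26.5% to 29.8%. Atp6v0e2 held 66.1% and 66.7% of its pair.

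**Figure D3:**
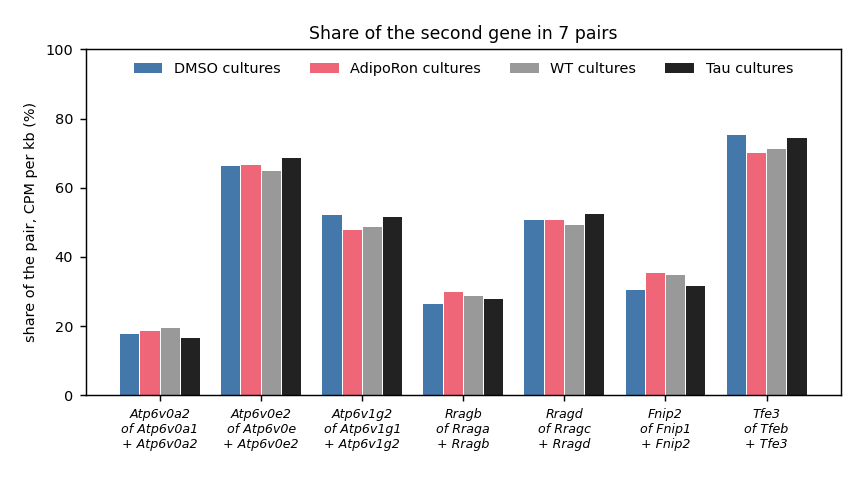
Share of the second gene in 7 pairs of paralogs, as percent of the CPM per kb of the pair, in the DMSO, AdipoRon, WT and Tau pools (bars, from 0). The share of Rragd is 50.6% with DMSO and with AdipoRon, that of Fnip2 is 30.4% and 35.3%, and that of Tfe3 is 75.2% and 70.0%.

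Between Tau and WT cultures the 42 genes differed little. The median log2 difference was 0.01, and 23 members had a higher mean in Tau cultures, 54.8% against 49.7% of all genes and 43.2% of those above a log2 CPM of 4. None was more than 1.2-fold higher, against 10.6% of all genes and 0.923% of those above that level. Tfeb alone was more than 1.2-fold lower, against 8.5% and 3.53% of the same genes. Tfeb is itself not above that level in every table, and its difference became -0.26, short of 1.2-fold, when centred on the median of genes above it. Its means were 17.9 CPM over WT and 14.8 CPM over Tau cultures, a log2 difference of -0.27. The summed level of 6 microglial markers differed by -51.1% between Tau and WT cultures and that of 6 oligodendrocyte-lineage markers by -38.7%, and their part in the difference of Tfeb and of the genes below was not tested.

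After Tfeb, the largest differences between Tau and WT cultures were those of Atp6v0e, Fnip2 and Lamtor4. Atp6v0e had 52.2 CPM in WT and 45.2 CPM in Tau cultures, a log2 difference of -0.21. Fnip2 and Lamtor4 differed by -0.20 and -0.16. All 5 Ragulator genes had lower means in Tau cultures, by 0.03 to 0.16 on the log2 scale, and their summed level was 226.8 CPM in WT and 211.7 CPM in Tau cultures. The largest difference in the other direction was that of Atp6v0a1, with 441.6 CPM in WT and 487.6 CPM in Tau cultures, 0.14. In the V1 sector 7 of 9 genes had higher means in Tau cultures, with a sector median of 0.09, from -0.12 for Atp6v1f to 0.12 for Atp6v1g2. The accessory genes Atp6ap2 and Atp6ap1 differed by 0.08 and 0.03. Rragd and Rragc, whose AdipoRon differences were alike, stood on either side of 0 here, at 0.10 and -0.09. Slc38a9 was at 0.07, and the GATOR1 genes ran from 0.03 for Nprl3 to 0.08 for Nprl2. Rheb was at 0.04, Tsc2 at -0.04 and Tfe3 at -0.05. The differences of Mtor, Rptor, Mlst8, Tsc1, Rragb and Fnip1 lay between -0.01 and 0.01.

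A further comparison follows from the same means. The Tau pool and the DMSO pool share the Tau cultures with DMSO, so the difference of their levels gives Tau cultures with AdipoRon minus WT cultures with DMSO. The AdipoRon and WT pools give the same quantity through the WT cultures with AdipoRon. Over 19399 genes the routes correlated at r = 0.999 across genes, which are not independent replicates, and for the 42 members they differed by at most 2.02 percentage points of the mean level. The log2 values below take the mean of these 2 groups as that of all 4 and are approximate.

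Against WT cultures with DMSO, 10 of the 42 genes were more than 1.2-fold higher in Tau cultures with AdipoRon, which is 23.8% against 18.3% of all genes and 10.2% of those above a log2 CPM of 4. None was more than 1.2-fold lower, against 15.8% and 10.7%. Above 0 were 35 of the 42, or 83.3%, against 52.5% of all genes and 50.2% of those above the level of 4. Rragd had the largest difference, 0.57, then Fnip2 at 0.48 and Depdc5 at 0.40. Fnip1 was at 0.38, Rragc at 0.37, Mlst8 at 0.35, Flcn and Nprl2 at 0.34 and Slc38a9 at 0.33. Atp6v0e2 at 0.29 was the single pump gene among the 10, with Atp6v1d at 0.26 just short of the threshold. The most negative values were those of Tfe3, Rheb and Atp6v0a2, each at -0.23. In the other complexes the lowest values were -0.04 for Lamtor2, 0.04 for Rraga, 0.05 for Nprl3 and 0.13 for Tsc2. The highest Ragulator value was 0.11 for Lamtor4, Tsc1 was at 0.17 and Tfeb at -0.07. Atp6ap2 and Atp6ap1 were at 0.12 and 0.11, and Atp6v1g2, the lowest of the V1 sector, was at -0.0023. All 6 microglial and all 6 oligodendrocyte-lineage markers were more than 1.2-fold lower in this comparison, with median log2 differences of -0.96 and -0.97, and their part in the values above was not tested. This comparison uses the DMSO pool of the AdipoRon comparison and the Tau pool of the Tau comparison, so it is not separate evidence from either. Its groups differ in treatment and in genotype at once, and these cannot be told apart in it.

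The rest of the pathway was followed in a list of 33 genes, of which 27 were in all 4 tables (Kics2, Samtor, Atp6v1e2 and Atp6v1g3 had no row under these symbols). With AdipoRon, 6 of the 27 were more than 1.2-fold higher and 1 lower, against 15% and 13.8% of all genes. The median log2 difference was 0.11, against 0.03 over all genes. Among pump subunits of other tissues, Tcirg1 (the a3 subunit) had 62.8 CPM with DMSO and 80.8 CPM with AdipoRon, a difference of 0.36. Atp6v0d2 had 9.97 and 15.0 CPM, a difference of 0.59, and Atp6v1c2 stayed under 1 CPM in every pool. Atp6v0a4 and Atp6v1b1 were each listed in some tables, below 1 CPM.

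In GATOR2, which counters GATOR1, Wdr59 differed by 0.31, Wdr24 by 0.18 and Mios by 0.03, while Seh1l was at -0.08 and Sec13 at -0.04. In KICSTOR, which places GATOR1 on the lysosome, Kptn was at 0.03 and Itfg2 at -0.08. The sestrins split, with Sesn3 at 0.20, Sesn1 at 0.19 and Sesn2 at -0.25. Deptor, an inhibitor of mTOR, had 28.9 CPM with DMSO and 35.5 CPM with AdipoRon, a difference of 0.29. Akt1s1, another inhibitor, differed by 0.11, Rhebl1, a relative of Rheb, by 0.09 and Tbc1d7, the small TSC subunit, by -0.01, and the arginine sensors Castor1 and Castor2 by 0.14 and -0.03.

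Of the substrates of mTORC1, Ulk1, which starts autophagy, had 91.1 CPM with DMSO and 110.6 CPM with AdipoRon, a difference of 0.28. Eif4ebp1, a repressor of translation, had 62.5 and 50.7 CPM, a difference of -0.30 and the 1 gene of the list past 1.2-fold on the lower side. Eif4ebp2, Rps6kb2 and Rps6kb1 differed by 0.13, 0.07 and -0.01. The relatives of Tfeb, Mitf and Tfec, differed by 0.17 and 0.60, and Tfec was near 1 CPM in every pool. Between Tau and WT cultures, Atp6v1c2 at 0.28 and Tfec at -0.38, both at about 1 CPM or less, were the genes of this list past 1.2-fold, against 10.6% of all genes higher and 8.5% lower.

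Markers were used to check the cultures against their label. All 8 neuronal markers were detected, with a summed level of 4398 CPM with DMSO and 3835 CPM with AdipoRon, and 7 of the 8 had a lower mean with AdipoRon. The 6 astrocyte markers summed to 4159 and 4452 CPM, so the cultures also held astrocyte RNA. Sums over different marker genes, not taken per length, do not give how much RNA came from each cell type. Microglial markers summed to 221.3 CPM with DMSO and 241.8 CPM with AdipoRon, and oligodendrocyte-lineage markers to 656.6 and 627.3 CPM. Fibroblast markers summed to 81.8 and 73.9 CPM. Of the endothelial markers Cldn5 was in no table and the others summed to under 4 CPM.

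All 6 microglial markers had lower means in Tau cultures, with sums of 304.9 CPM in WT and 149.2 CPM in Tau, and so had all 6 oligodendrocyte-lineage markers, with sums of 781.7 and 479.2 CPM. Neuronal markers summed to 3937 CPM in WT and 4327 CPM in Tau cultures, astrocyte markers to 4277 and 4315 CPM, and fibroblast markers to 67.9 and 87.5 CPM.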

How the data were processed

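Polyadenylated RNA of 21 cultures was measured by the study, and groups were taken from the sample titles. According to the methods, the authors trimmed reads, aligned them to mm10 with STAR, quantified them with RSEM and compared groups with generalized linear models in edgeR. Elsewhere the build is given as GRCm39, and the tables are named after Rsubread. Library normalization, gene filters and versions are not given in the sources used here.

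The authors' deposited tables hold for each gene a mean level in log2 CPM. It is the mean over the 2 groups that the table compares, and was the single column used. The other 5 columns hold the authors' own comparison (fold change, likelihood ratio, p-value, false discovery rate and call) and were not used. One pair of groups is named only by its table's title, and the sample descriptions name another table in its place. The arithmetic between the 4 means was therefore checked and closed.

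Means were subtracted between tables without a filter beyond the authors' own, over 19399 genes in all 4 tables (19811 to 21378 genes each). Of the cultures, 45.5% in the AdipoRon pool and 50% in the DMSO pool were Tau, and 54.5% in the WT pool had AdipoRon, so a small part of each contrast comes from the other. A threshold of 1.2-fold was used in place of a test. The contrast code was tested on simulated data. Transcript lengths are those of the GENCODE M39 canonical transcripts, and promoter sequences are from RefSeq (GRCm38.p6). Analyses used Python 3.11.15, numpy 2.4.6 and pandas 2.3.3.

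Every member is named with its level, and by value the highest and lowest difference in each complex, members past 1.2-fold and paralog pairs. Folds of 1.1 and 1.5, floors on the level and centring on the median were tried as alternatives. One gene of the wider pathway list is counted but not reported here. Members and lists were chosen with earlier results of these data known.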

Additional observations from a re-analysis of the deposited data

How the results depend on the processing

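Counts of members past the threshold depended on the fold chosen. With AdipoRon against DMSO cultures, 8 members passed 1.2-fold, 24 passed 1.1-fold (22 higher, 2 lower) and 1 passed 1.5-fold, against 28.9%, 52.5% and 7.78% of all genes in either direction. Between Tau and WT cultures 1 passed 1.2-fold, 7 passed 1.1-fold and 0 passed 1.5-fold, against 19.1%, 37.1% and 4.79% of all genes. The 1 gene, Tfeb, was also lost among genes above a log2 CPM of 4 in every table, and when differences were centred on the median of those genes, with 0 members left under each. For Tau cultures with AdipoRon against WT cultures with DMSO, 10 passed 1.2-fold, 22 passed 1.1-fold and 0 passed 1.5-fold, against 34.1%, 56.2% and 10.8% of all genes. Floors of 0 and 4 on the log2 CPM left the AdipoRon count at 8. The floor of 0 dropped no member and that of 4 only Tfeb, which was not past 1.2-fold with AdipoRon, so this count could not change. The route through the WT cultures with AdipoRon left the third count at 10, and both routes estimate the same quantity. Centring on either median moved 2 of 42 AdipoRon calls, those of Lamtor4 and Rheb, and reversed no called difference.

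No paired analysis was possible because the columns used hold means of pooled groups and no value per culture. Leaving out replicates, the replicate block and count models were not run for the same reason. Without values per culture, no difference here can be set against the spread between cultures.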

Other observations

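The E-box forms searched in the members' promoters were also followed over all genes with a promoter window. Of 14477 such genes with a level in all 4 tables, 14.8% were more than 1.2-fold higher with AdipoRon and 12.9% were lower, with a median log2 difference of 0.03. Among the 1532 genes with CACGTG, 17.8% were higher and 10.5% lower, with a median of 0.05. Among the 876 genes with TCACGTG the shares were 18.95% and 9.02%, with a median of 0.07. For the 253 genes with TCACGTGA they were 21.7% and 5.93%, with a median of 0.08, and for the 87 genes with the CLEAR element, which adds 1 base at each end, they were 24.1% and 4.60%, with a median of 0.09. Each longer form is a subset of the shorter one, so these 4 sets are nested and are not separate observations. E-boxes are bound by many factors besides Tfeb and Tfe3, and no test was run on these shares. The shares were not set against genes of like level. Level matters here, as 15% of all genes were higher and 13.8% lower, against 10.9% and 8.89% of those above a log2 CPM of 4.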
